A study of Mus musculus with 22 samples.

Results

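Histone H3.3 was compared between testes of mice heterozygous for 3 Robertsonian translocations (3Rb) and of mice heterozygous for 1 (1Rb). The 6 H3.3 libraries of the comparison, 3 of 3Rb and 3 of 1Rb, were chosen by sample title from the 22 libraries used here. All came from whole testis at 6 weeks and were precipitated with one anti-H3.3 antibody. 3Rb mice were F1 offspring of B6.SPRET7MOLF12 and RBF/Dnj. 1Rb mice were F1 offspring of CBy.RBF-Rb(8.12)5Bnr/J and B6.SPRET7MOLF12. B6.SPRET7MOLF12 itself, with no translocation, is the control strain Cg, also with 3 libraries; it is a parent of both crosses. Cg shared the estimate of the spread, gave a further level, and its H3.3 over input sorted windows into the levels that were matched. The labels name only the translocation of 8 with 12. The other 2 fusions of RBF/Dnj, of 1 to 3 and of 9 to 14, are taken from general knowledge of that strain. Chromosomes 1, 3, 9 and 14 were therefore taken as joined in 3Rb and free in 1Rb, 8 and 12 as joined in both, and the other 13 autosomes as joined in neither. The carriers also differ in the strain of the second parent, so a difference between 3Rb and 1Rb cannot be told apart from one between RBF/Dnj and CBy.RBF-Rb(8.12)5Bnr/J. Beside H3.3, γH2AX libraries at 4 weeks were used, 3 of 3Rb and 3 of 1Rb_M, whose strain labels are those of the 3Rb and 1Rb H3.3 libraries. A further 3 γH2AX libraries at 4 weeks, of the cross 1Rb_P with 1 translocation, shared the scaling and the estimate of the spread of that fit. They were not in its contrast. The inputs were of Cg at 6 weeks and of C57BL/6J and 1Rb_M at 4 weeks. The input titled 1Rb_M carries another strain label than the 1Rb_M γH2AX libraries, with C57BL/6J as first parent and CBy.RBF-Rb(8.12)5Bnr/J as second, which is the label of the 1Rb_P libraries, so its title and its strain disagree.

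A Robertsonian translocation fuses a pair of chromosomes at their centromeres. In a heterozygote the fused chromosome pairs in meiosis with its free partners as a trivalent, and the stretches next to the centromere often stay unsynapsed. Unsynapsed chromatin in spermatocytes is marked by γH2AX, the phosphorylated form of H2AX, and silenced. H3.3 is the H3 variant laid down outside S phase, by HIRA at active genes and by ATRX and DAXX at heterochromatin, and in spermatocytes it replaces H3.1 and H3.2 on the silenced sex chromosomes and on other unsynapsed chromatin. Whole testis holds every germ cell stage and the somatic cells, so fewer cells of a type and less H3.3 per cell cannot be told apart.

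The values were counts per 50 kb window. The labels do not say that replicates are separate animals. Totals ran from 64482477 to 70858919 counts in the 3Rb libraries, from 43811589 to 64997400 in the 1Rb libraries and from 41278440 to 128348440 in the Cg libraries, and the median window held 652 to 2030 counts. One 1Rb library stood apart from the others of its group. Between 1Rb replicate 1 and replicates 2 and 3 the chi-square per degree of freedom was 5.61 and 5.85, against 1.61 between replicates 2 and 3. The 3Rb pairs gave 1.38 to 2.43. Cg was split as well, with 7.57 and 5.48 between replicate 1 and replicates 2 and 3, against 1.48 between replicates 2 and 3. The contrast between gene-rich and gene-free windows moved with these splits. On the unjoined autosomes this contrast was a log2 of 0.93, 0.84 and 0.83 in the 3Rb libraries. It was 0.85 in 1Rb replicate 1 and 1.05 and 1.07 in 1Rb replicates 2 and 3. In Cg it was 1.08, 0.89 and 0.92. In this contrast 1Rb replicate 1 thus lay near 3Rb and Cg replicates 2 and 3, and the other 1Rb libraries near Cg replicate 1. Windows poor in H3.3 tended to be higher in 3Rb, and windows rich in it lower, on joined and unjoined autosomes alike. In the fifth of autosomal windows with the least H3.3 in Cg, the median log2 difference of 3Rb minus 1Rb was 0.074 on the joined and 0.071 on the unjoined autosomes. In the fifth with the most it was −0.051 and −0.062. Both properties are given beside the results they touch. Median enrichment over input at spermatid genes was a log2 of 0.66, 0.60 and 0.59 in the 3Rb libraries and 0.58, 0.66 and 0.64 in the 1Rb libraries. At Sertoli cell genes it was 0.29, 0.27 and 0.28 in 3Rb against 0.31, 0.41 and 0.37 in 1Rb. At Leydig cell genes it was 0.43, 0.41 and 0.35 in 3Rb against 0.30, 0.58 and 0.55 in 1Rb. At peritubular and blood genes it was 0.28, 0.25 and 0.22 in 3Rb against 0.25, 0.44 and 0.35 in 1Rb. The groups overlapped at all of these but the Sertoli genes, and also at meiotic prophase and spermatogonia genes. The part of cell makeup in the differences below was not tested. No input of 3Rb was used, so DNA copy number and read mapping cannot be told apart from H3.3 in any of them.

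On the autosomes, 722 of 48017 windows tested were higher in H3.3 in 3Rb than in 1Rb (1.5%) and 530 were lower (1.1%). With X and Y, 3242 of 53117 windows were called in either direction (6.1%) by edgeR's quasi-likelihood test, 1107 higher (2.08%) and 2135 lower (4.02%), of which 1486 losses were on Y. On the 4 chromosomes joined in 3Rb only, 315 of 11844 windows were higher (2.66%) and 125 lower (1.06%). On the 13 unjoined autosomes 381 of 31312 were higher (1.22%) and 359 lower (1.15%). On 8 and 12, joined in both groups, 26 of 4861 were higher and 46 lower. The shares of the joined and unjoined chromosomes were not tested against each other. Of the 125 joined losses, 46 lay at 3 to 8 Mb of 14. Of the 315 joined gains, 124 lay on 14, which is 5.09% of its windows. Gains took 1.61% of windows on 1, 1.88% on 3 and 2.88% on 9. Among the unjoined autosomes this share ran from 0.315% on 16 to 2.78% on 4. The size of the called differences was small: among called windows 203 joined and 441 unjoined passed a log2 of 0.25 in either direction, 35 and 143 passed 0.5, and 0 and 9 passed 1. Without 1Rb replicate 1 the joined chromosomes had 577 windows higher and 258 lower and the unjoined 1002 and 1010. With 1 of the other libraries left out, the gains on the joined chromosomes were 188 (3Rb replicate 2), 209 (3Rb replicate 3), 206 (1Rb replicate 2) and 154 (1Rb replicate 3), and on the unjoined 249 (3Rb replicate 2), 248 (1Rb replicate 2) and 239 (1Rb replicate 3).

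As whole chromosomes, 0 of the 19 autosomes were called by edgeR, and 0 had an unadjusted p under 0.05 (1 of 21 chromosomes, 4.76%, was called: Y). Chromosome 9 stood at a log2 of 0.047, and at −0.012 without windows of unusual input. The window with the most counts over all H3.3 and input libraries was on 9, at 3000001. The top window of a library held 3.43, 3.47 and 3.49% of its counts in 3Rb, against 3.80, 2.80 and 2.89% in 1Rb. Chromosome 14 held 4.47, 4.52 and 4.53% of counts in the 3Rb libraries, against 4.49, 4.38 and 4.37% in the 1Rb libraries. Its log2 difference was 0.022 ± 0.018 (SE; edgeR adjusted p = 0.417), and the groups overlapped through 1Rb replicate 1. Chromosome 3 held 4.90, 4.98 and 4.98% in 3Rb, against 4.89, 4.89 and 4.86% in 1Rb, a log2 difference of 0.014 ± 0.0073 (edgeR adjusted p = 0.399). Chromosome 1 held 6.29 ± 0.048% in 3Rb and 6.24 ± 0.030% in 1Rb (SD, n = 3 each). These differences, none of which was called, moved with the library left out. Without 1Rb replicate 1 they were 0.106 on 9, 0.039 on 14 and 0.021 on 3, and without 1Rb replicate 2 they were 0.0044 on 9, 0.0029 on 14 and 0.0027 on 3. Without 1Rb replicate 3 they were 0.015 on 9, 0.0050 on 14 and 0.0018 on 3, and without 3Rb replicate 1 they were 0.012 on 14 and 0.0059 on 3.

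On the joined chromosomes, gains took a larger share of the windows next to the centromere than of those beyond. In the first 10 Mb of assembled sequence (3 to 13 Mb) of 1, 3, 9 and 14, 85 of 800 windows were higher in 3Rb (10.6%) and 47 were lower (5.88%). In the first 10 Mb of the unjoined autosomes 59 of 2590 were higher (2.28%) and 9 lower (0.347%). Beyond 13 Mb the joined chromosomes had 230 of 11043 windows higher (2.08%) and 78 lower (0.706%). The unjoined had 322 of 28722 higher (1.12%) and 350 lower (1.22%) there. Many of these joined gains lay on 14. It held 40 of 55 at 13 to 23 Mb, 2 of 8 at 23 to 33 Mb and 19 of 22 at 33 to 43 Mb. At 43 to 63 Mb it held 48 of 57, and farther on 5 of 88. In the first 10 Mb, chromosome 9 had 47 gains and 0 losses among its 200 windows. Chromosome 3 had 15 gains and 1 loss there, and chromosome 1 had 13 gains and 0 losses. Chromosome 14 went the other way, with 10 gains and 46 losses. Gains near a centromere were not limited to joined chromosomes: chromosome 7 had 39 gains and 3 losses among 200 windows, and 19 had 11 and 1. The 85 gains became 162 without 1Rb replicate 1, and 38, 52, 46 and 29 without 3Rb replicate 2, 3Rb replicate 3, 1Rb replicate 2 and 1Rb replicate 3, whereas the 47 losses stayed between 41 and 48 when any 1 library was left out.

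**Figure D1:**
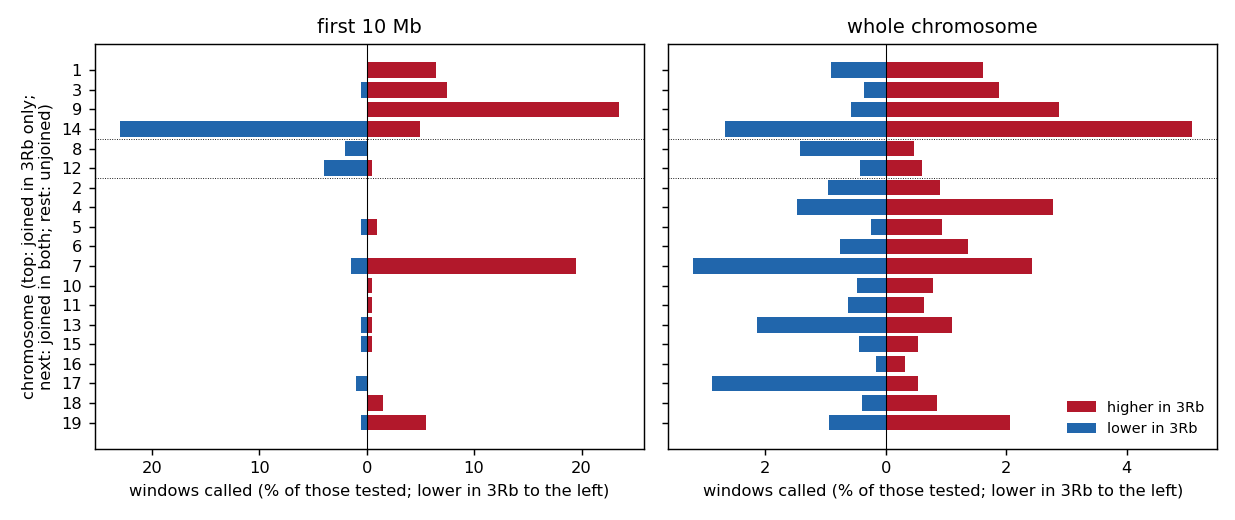
Share of tested 50 kb windows called higher in 3Rb (red, to the right) or lower in 3Rb (blue, to the left) in H3.3, for the first 10 Mb (left panel) and the whole of each autosome (right panel); the panels have different scales. In the first 10 Mb, gains reached 23.5% on 9 and losses 23% on 14, and unjoined 7 had 19.5% gains.

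The centromere-near windows of 1, 3 and 9 hold little H3.3. In Cg their median stood at a log2 of −0.33, −0.39 and −0.35 relative to that of the unjoined autosomes, while 14 stood at −0.0057. Windows poor in H3.3 tended to be higher in 3Rb on unjoined autosomes too. Each stretch was therefore also set against all windows of the unjoined autosomes with the same H3.3 level in Cg, in a comparison chosen after the data were seen. On this matched scale the first 10 Mb of 9 stood at a log2 of 0.049, 0.031 and 0.020 in the 3Rb libraries, against −0.047, −0.066 and −0.065 in the 1Rb libraries. On 3 it stood at −0.026, −0.008 and −0.045 in 3Rb, against −0.053, −0.065 and −0.083 in 1Rb. On 1 it stood at 0.018, 0.021 and 0.011 in 3Rb, against −0.028, −0.023 and −0.017 in 1Rb. All 3 chromosomes had every 3Rb library above every 1Rb library, 1Rb replicate 1 included. The differences of 3Rb minus 1Rb were 0.092 (1.07-fold) on 9, 0.041 (1.03-fold) on 3 and 0.039 (1.03-fold) on 1, the highest of 19 autosomes, and these were the only 3 so placed (15.8%). Cg lay beside 1Rb, with means of −0.040 on 9, −0.059 on 3 and −0.020 on 1. Since Cg set the levels that were matched, its own values are drawn towards those of the unjoined windows.

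On 3 autosomes, 14, 12 and 8, every 3Rb library lay below every 1Rb library (15.8% of 19). On 14 the matched level was −0.020, −0.015 and −0.019 in 3Rb, against 0.032, 0.033 and 0.052 in 1Rb. On 8, joined in both groups, it was 0.117, 0.099 and 0.085 in 3Rb, against 0.170, 0.162 and 0.180 in 1Rb, while the Cg mean was 0.00017. On 12 it was 0.101, 0.080 and 0.069 in 3Rb, against 0.141, 0.124 and 0.165 in 1Rb, with a Cg mean of 0.0058. The centromere-near stretches of 8 and 12 thus stood above the Cg level in both carrier groups, less so in 3Rb. In windows of 3 to 8 Mb the gap was wider: on 8 the mean was 0.14 ± 0.026 in 3Rb and 0.29 ± 0.027 in 1Rb, against −0.019 in Cg, and on 12 it was 0.082 ± 0.016 in 3Rb and 0.18 ± 0.015 in 1Rb, against −0.019 in Cg (SD, n = 3). From 8 to 13 Mb the groups overlapped on both. Of the single windows of this 10 Mb on 8 and 12, 1 was called higher and 12 lower in 3Rb, of 400. On the 13 unjoined autosomes the matched difference ran from −0.012 on 13 to 0.023 on 7, and no unjoined autosome had separate groups. A level above Cg in both carrier groups was not limited to 8 and 12. On unjoined 7 the mean was −0.021 in 3Rb and −0.044 in 1Rb, against −0.102 in Cg.

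**Figure D2:**
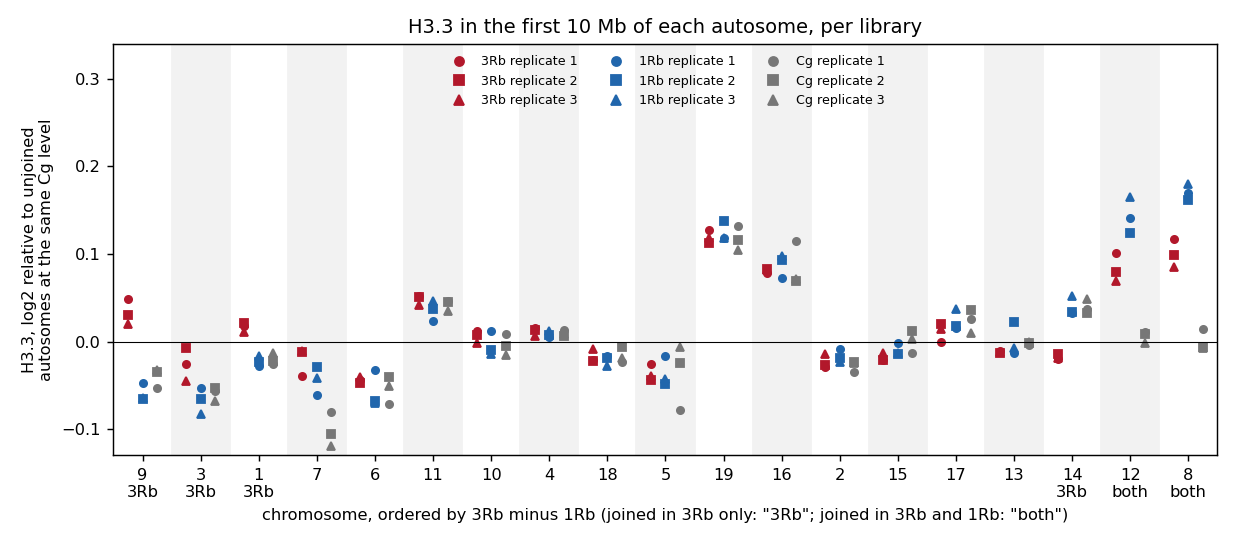
H3.3 in the first 10 Mb of each autosome per library, as log2 relative to windows of the unjoined autosomes with the same H3.3 level in Cg; chromosomes run from the largest to the smallest difference of 3Rb minus 1Rb. 3Rb libraries (red) lie above 1Rb libraries (blue) on 9, 3 and 1, and below them on 14, 12 and 8. Both lie above Cg (grey) on 8 and 12, and also on unjoined 7.

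The mean of the 4 joined chromosomes was also tested, although 14 had the opposite sign to 1, 3 and 9. Relative to the median proximal window of the unjoined autosomes, the joined stretches stood at a log2 of −0.25, −0.23 and −0.23 in the 3Rb libraries, against −0.23, −0.29 and −0.30 in the 1Rb libraries. The difference was 0.040 (1.03-fold; two-sided exact permutation p = 0.2, n = 3 each), and the groups overlapped through 1Rb replicate 1. With levels matched, the mean of the 4 was 0.0051, 0.0073 and −0.0082 in 3Rb, against −0.024, −0.030 and −0.028 in 1Rb. That difference was 0.029 (exact permutation p = 0.1). Over 1, 3 and 9 alone, a choice made after their signs were seen, it was 0.057 (exact permutation p = 0.1). The matching was also chosen after the data were seen, so the p-values on the matched scale are descriptive only. A p of 0.1 is the smallest that 3 libraries against 3 allow, so no value of this kind could pass 0.05. Beyond 13 Mb the matched difference of the 4 was 0.0016 (1.00-fold; exact permutation p = 0.5). There, 3 autosomes (6, 12 and 19; 15.8%) had every 3Rb library above every 1Rb library and 3 (1, 7 and 15; 15.8%) every one below.

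Bands of distance showed how far the shifts reached. On 9 the matched difference of 3Rb minus 1Rb was 0.13 in the first band (3 to 8 Mb), 0.070 in the second (8 to 13 Mb) and 0.0049 in the next (13 to 23 Mb). On 3 it was 0.066, 0.0095 and 0.0061 over the same bands, and on 1 it was 0.047, 0.028 and −0.0012. The difference was smaller with distance on all 3. The 3Rb and 1Rb libraries overlapped at 13 to 23 Mb on all 3, and on chromosome 3 already at 8 to 13 Mb. Chromosome 14 changed sign along its length: the difference was −0.17 in the first band, 0.042 in the second and 0.066 in the next, each with separate groups. Its 3 to 8 Mb stood at −0.139, −0.157 and −0.128 in 3Rb, against 0.036, 0.012 and 0.046 in 1Rb. All 46 losses of the first 10 Mb of 14 lay there, and all 10 gains lay at 8 to 13 Mb. The γH2AX difference of the same crosses at 4 weeks (3Rb minus 1Rb_M) had a median in the first band of 0.77 on 9, 0.64 on 3, 0.67 on 1 and −0.010 on 14. On 14 it was 0.39 in the second band and 0.62 in the next. In the first band of 14, 17 of 100 windows were higher in γH2AX and 9 lower.

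Counts summed per 1 Mb were tested in the same way. Of 2673 bins, 68 were higher in 3Rb (2.54%) and 101 lower (3.78%). The joined chromosomes held 26 of 595 higher and 6 lower, the unjoined 23 of 1574 higher and 12 lower, and 8 and 12 held 0 of 245 higher and 3 lower. In the first 10 Mb of the joined chromosomes 11 of 40 bins were higher and 4 lower, against 4 and 0 of 130 on the unjoined. The bin of 5 to 6 Mb on 9 was higher by a log2 of 0.21 ± 0.037 (SE; adjusted p = 0.00333), that of 4 to 5 Mb on 3 by 0.16 ± 0.042 (adjusted p = 0.0468), and that of 8 to 9 Mb on 1 by 0.15 ± 0.032 (adjusted p = 0.0151). Chromosome 14 alone held 15 gains and 4 losses. Its losses ran over the 4 bins from 3 to 7 Mb, led by 5 to 6 Mb (log2 −0.22 ± 0.019, adjusted p = 9.69e-06). Its gains included each bin from 12 to 19 Mb and a further group from 41 to 45 Mb, where 43 to 44 Mb had the largest change on any joined chromosome (log2 0.37 ± 0.016, adjusted p = 7.98e-08). Without 1Rb replicate 1 the bins called were 371 higher and 267 lower in all. Leaving out 3Rb replicate 2, 3Rb replicate 3, 1Rb replicate 2 or 1Rb replicate 3 gave 43, 45, 42 or 39 higher.

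**Figure D3:**
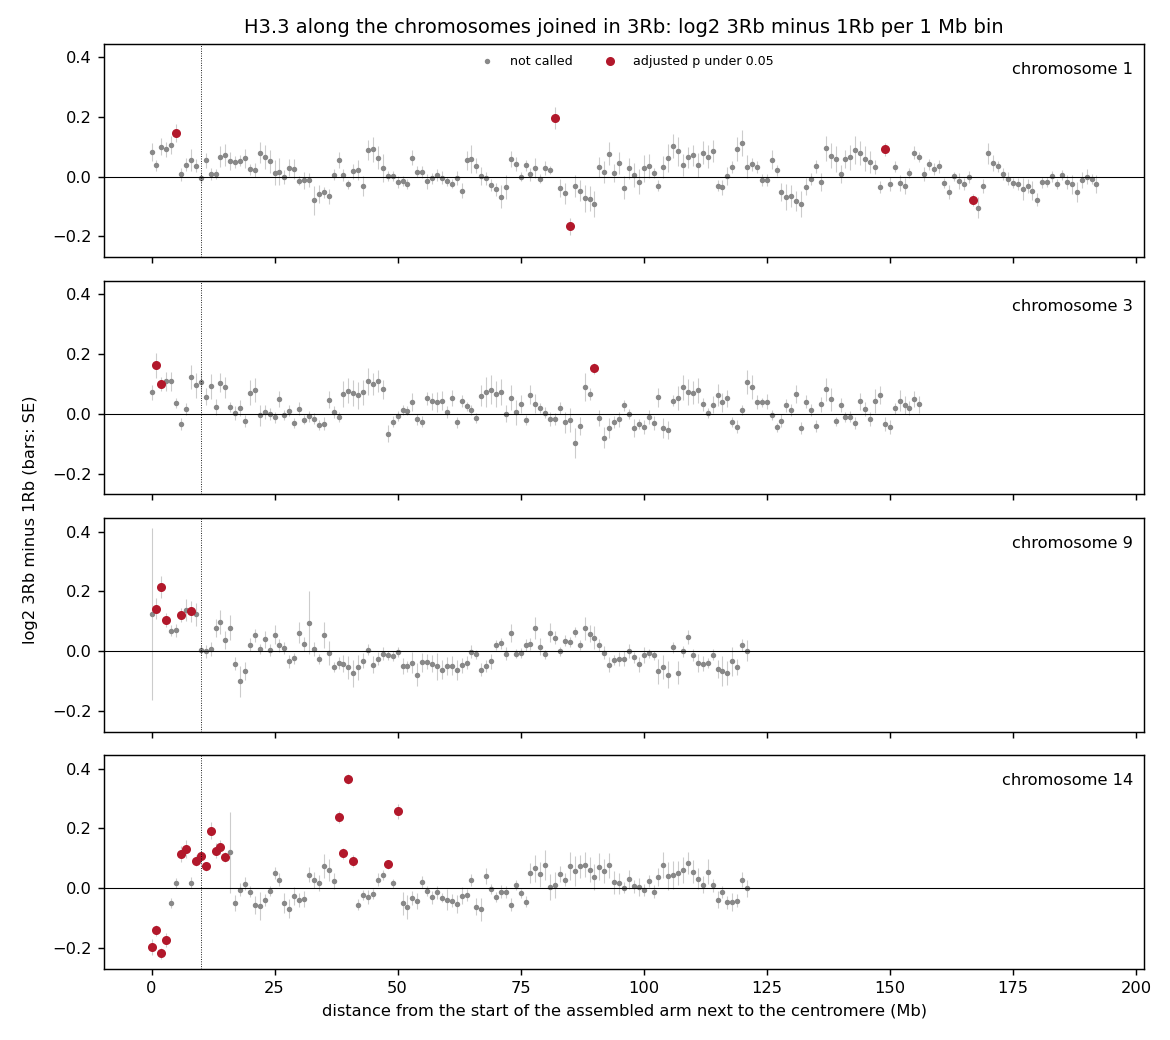
Log2 difference of 3Rb minus 1Rb in H3.3 per 1 Mb bin along 1, 3, 9 and 14, by distance from the start of the assembled arm; red points passed an adjusted p of 0.05, bars are SE, and the dotted line marks 10 Mb (1 bin of 9 that precedes the arm is not drawn). Called gains lie within the first 10 Mb on 9 and near the start of 3 and 1, with a few farther along, while 14 starts with 4 called losses.

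Single windows within these stretches lay at genes of varied function; the 4 below were chosen after their values were seen, among windows whose groups do not overlap. At Gria4 on 9 (4700001 to 4750000), which encodes a subunit of AMPA glutamate receptors, H3.3 was 13.9, 13.9 and 13.5 CPM (counts scaled to library size) in the 3Rb libraries, against 11.9, 10.7 and 10.1 CPM in the 1Rb libraries. The log2 difference was 0.34 ± 0.063 (adjusted p = 0.000104). At Fhit on 14 (10400001 to 10450000), a dinucleoside triphosphate hydrolase gene, it was 15.3, 15.2 and 15.6 CPM in 3Rb, against 12.8, 11.6 and 12.2 CPM in 1Rb (log2 0.33 ± 0.052, adjusted p = 6.78e-06). At Sntg1 on 1 (8600001 to 8650000), a syntrophin gene, it was 12.9, 12.1 and 12.2 CPM in 3Rb, against 9.83, 10.6 and 10.5 CPM in 1Rb (log2 0.26 ± 0.065, adjusted p = 0.00562); the call was lost without 3Rb replicate 1 (adjusted p = 0.0654). These gains were of 1.20- to 1.27-fold, while γH2AX at the same 3 windows differed by a log2 of 0.84, 0.78 and 0.71. At Il7, a lymphoid cytokine gene, and Zc2hc1a on 3 (7550001 to 7600000) the values were 14.2, 15.05 and 13.99 CPM in 3Rb, against 13.6, 11.9 and 12.4 CPM in 1Rb (log2 0.20 ± 0.061, adjusted p = 0.046). That call was lost under 8 alternatives, with adjusted p from 0.0513 to 0.318.

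Over the first 10 Mb of 1, 3, 9 and 14, 712 of 800 windows (89.0%) were higher in γH2AX in 3Rb than in 1Rb_M, against 17.8% of autosomal windows. All 85 windows with an H3.3 gain were among them, against 89.0% of all windows there, and 11.9% of the γH2AX gains had an H3.3 gain. Of the 47 H3.3 losses, 9 were also lower in γH2AX. Within the first 10 Mb of 9, where 199 of 200 windows gained γH2AX, the γH2AX and H3.3 differences had a Pearson r of 0.16 and a Spearman rho of 0.18 across windows. On 1 they were 0.10 and 0.12, on 3 0.56 and 0.53, and on 14 0.87 and 0.82. Windows are not independent replicates, and each mark's windows share their libraries.

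Larger single differences lay farther along the joined chromosomes. At Fbxw23 on 9 (109500001 to 109550000), of a family of F-box and WD repeat genes, H3.3 was 23.2, 23.96 and 22.4 CPM in 3Rb, against 13.3, 13.7 and 13.2 CPM in 1Rb, a log2 difference of 0.79 ± 0.051 (adjusted p = 9.49e-16). At Tdpoz3 on 3 (93800001 to 93850000), of a clustered family of TRAF and POZ domain genes, it was 20.1, 21.1 and 20.9 CPM in 3Rb, against 12.8, 12.3 and 12.2 CPM in 1Rb (log2 0.74 ± 0.052, adjusted p = 1.22e-14). It lies in a run of 6 called windows. On 14, Gm3072 (41600001 to 41650000) had 29.1, 29.2 and 28.7 CPM in 3Rb, against 17.7, 18.3 and 16.8 CPM in 1Rb, and Gm21154 with Gm5799 differed by a log2 of 0.68 ± 0.049; they lie in merged runs of 10 and 21 called windows. Trim43b on 9, of the tripartite motif family, stood at 0.58 ± 0.049, Cpa3 and Cpb1 on 3, both carboxypeptidase genes, at 0.52 ± 0.054, and Khdc1b and Khdc1a on 1, KH domain genes, at 0.52 ± 0.048. Gm7592 with Gm2427 on 1 stood at 0.42 ± 0.060. The rule for naming windows kept only those whose 3Rb and 1Rb libraries do not overlap, so their separation is no finding.

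At Nlgn1 on 3 (25500001 to 25550000), the gene of the synaptic adhesion protein neuroligin 1, H3.3 was 7.52, 8.65 and 8.50 CPM in 3Rb, against 13.9, 14.1 and 14.9 CPM in 1Rb (log2 −0.80 ± 0.064, adjusted p = 4.79e-13). At Fam177b and Brox on 1 (183250001 to 183300000) it was 41.6, 41.7 and 39.9 CPM in 3Rb, against 58.3, 63.96 and 62.7 CPM in 1Rb (log2 −0.59 ± 0.058, adjusted p = 1.76e-10). Cg stood at 42.99 ± 1.35 CPM there, beside 3Rb, and the 1Rb_M input stood above the Cg input by a log2 of 0.57. Of the other losses, Olfr952 on 9, an olfactory receptor gene, stood at −0.54 ± 0.069 and Gal3st2b on 1, a sulfotransferase gene, at −0.53 ± 0.059. Gm3248 and LOC108168187 on 14 stood at −0.41 ± 0.055 and −0.40 ± 0.051, both within 3 to 8 Mb. Selenbp2 on 3 stood at −0.36 ± 0.048. All 15 windows kept their calls under every alternative tried.

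**Figure D4:**
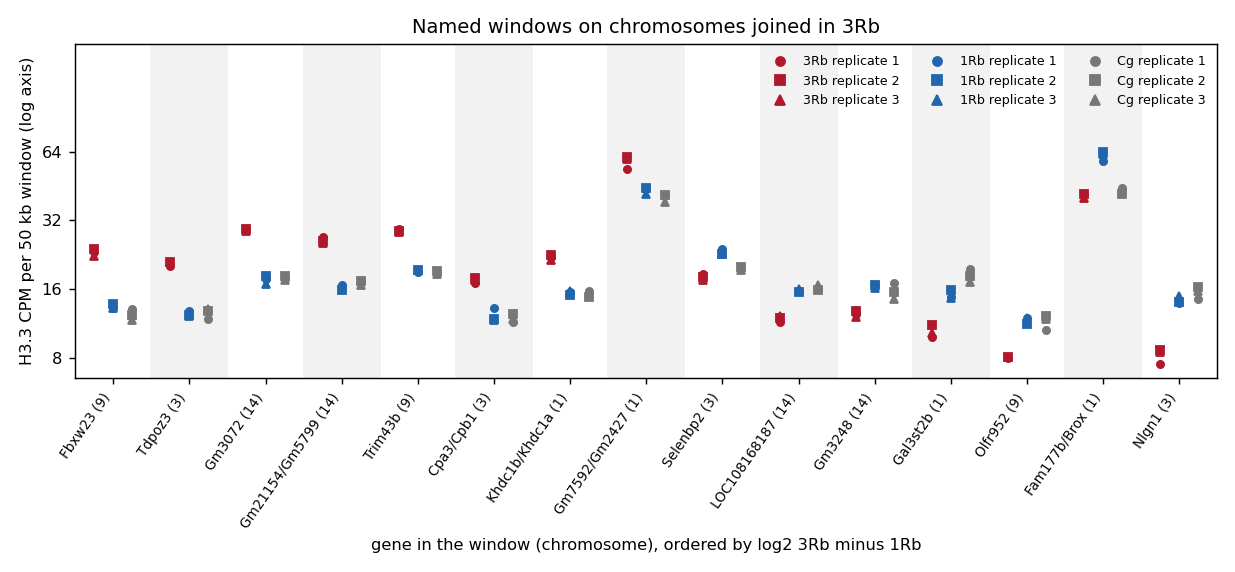
H3.3 in CPM (log axis) per library in the 15 windows named on the joined chromosomes, ordered by the difference of 3Rb minus 1Rb. The separation of 3Rb (red) from 1Rb (blue) was a condition for naming a window; Cg (grey) lies beside 1Rb in most, but beside 3Rb at Fam177b and Brox and between the carriers at Selenbp2.

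On the unjoined autosomes the largest differences were larger still. Cwc22 on 2 (77900001 to 77950000), a spliceosome gene known to vary in copy number between mouse strains, had 108.8, 105.1 and 101.6 CPM in 3Rb, against 21.3, 20.8 and 20.4 CPM in 1Rb (log2 2.34 ± 0.061, adjusted p = 1.14e-27). Naip6 on 13 (100300001 to 100350000), an inflammasome receptor gene of a varying cluster, had 32.8, 33.2 and 33.9 CPM in 3Rb, against 14.2, 13.5 and 13.8 CPM in 1Rb (log2 1.27 ± 0.051). The neighbouring Naip1 was lower, at 16.4 ± 0.247 CPM in 3Rb, against 25.5 ± 0.988 CPM in 1Rb (log2 −0.63). LOC115490339 on 6 stood at 1.10 ± 0.055, Gm42346 on 4 at 0.80 ± 0.057, Gm4312 with Gm4305 on 10 at 0.68 ± 0.059, Nlrp1b on 11, another inflammasome gene, at 0.66 ± 0.063, and Abcc2 with Cutc on 19 at 0.63 ± 0.051. At Nlrp1b the Cg mean was 13.3 CPM, level with 13.3 CPM in 3Rb, against 8.47 CPM in 1Rb. Snrpn and Snurf on 7 (59950001 to 60000000), imprinted genes of the Prader-Willi region, had 21.3, 21.1 and 21.1 CPM in 3Rb, against 12.52, 11.9 and 11.2 CPM in 1Rb (log2 0.84 ± 0.056), whereas the Snrpn window at 60450001 had 13.5 ± 0.178 CPM in 3Rb and 20.99 ± 0.678 CPM in 1Rb (log2 −0.63 ± 0.050). At that second window the 1Rb_M input stood above the Cg input by a log2 of 0.88.

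Lower in 3Rb on the unjoined autosomes were Mup17 on 4, a major urinary protein gene, with 7.62, 7.66 and 7.70 CPM in 3Rb, against 16.5, 16.1 and 16.8 CPM in 1Rb (log2 −1.11 ± 0.058), and H60b on 10, a ligand gene of the NKG2D receptor, with 9.01, 9.64 and 9.10 CPM in 3Rb, against 17.8, 18.3 and 17.5 CPM in 1Rb (log2 −0.95 ± 0.052). Olfr136 with Olfr137 on 17 stood at −0.82 ± 0.068, Gm46425 on 13 at −0.65 ± 0.049, Adamts13 with Rexo4 on 2 at −0.46 ± 0.056, Lipo2 with Lipo1 on 19 at −0.41 ± 0.053 and Clec2e on 6 at −0.40 ± 0.050. On 8 and 12, Csmd1 (0.21 ± 0.053) and Gm3993 with Gm38704 (0.17 ± 0.050) were higher, and 9530057J20Rik on 8, within a run of 21 called windows, was lower (−0.43 ± 0.056), as was Pcnx on 12 (−0.30 ± 0.053). Under the alternatives run, 2 of these 20 windows lost their call: Csmd1 without 3Rb replicate 3 (adjusted p = 0.0662), and Gm3993 under 6 alternatives.

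Across the 43 windows named by rule and reported, 36 also differed in γH2AX between 3Rb and 1Rb_M, all 36 in the same direction; of all windows 17.9% were higher and 20.2% lower in γH2AX. The ratio of the γH2AX to the H3.3 log2 difference had a median of 0.988. The inputs of 1Rb_M and Cg differed at the 43 windows by a log2 of −1.05 (Srsx on X) to 0.88, with a median of −0.0095. At some windows this difference lay near that of 1Rb minus Cg in H3.3. The 2 values were −0.69 and −0.65 at Nlrp1b, 0.47 and 0.51 at Gm46425, and 0.41 and 0.37 at Adamts13 with Rexo4. They were 0.32 and 0.38 at Mup17, and 0.32 and 0.33 at H60b. At others they had opposite signs, as at Clec2e (−0.095 and 0.33) and Abcc2 with Cutc (0.054 and −0.14). The part of DNA copy number was not tested. These inputs differ in age. With the mother named first, they differ in the strain of X by the title of the 1Rb_M input. Whether the X given by its strain label differs from that of Cg was not tested. The strain of Y differs by that label only. At the named windows the input difference ran from −1.05 to 0.56 on X and from −0.12 to 0.066 on Y. On X it was −1.05 at Srsx, −0.95 at Ott, 0.56 at Btbd35f23 and 0.55 at Gm5926. The H3.3 difference of 1Rb minus Cg at these windows was −1.25, −1.33, 0.58 and 0.48. At the named windows on Y that H3.3 difference ran from −0.18 to −0.12. Which of title and label is right was not tested.

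**Figure D5:**
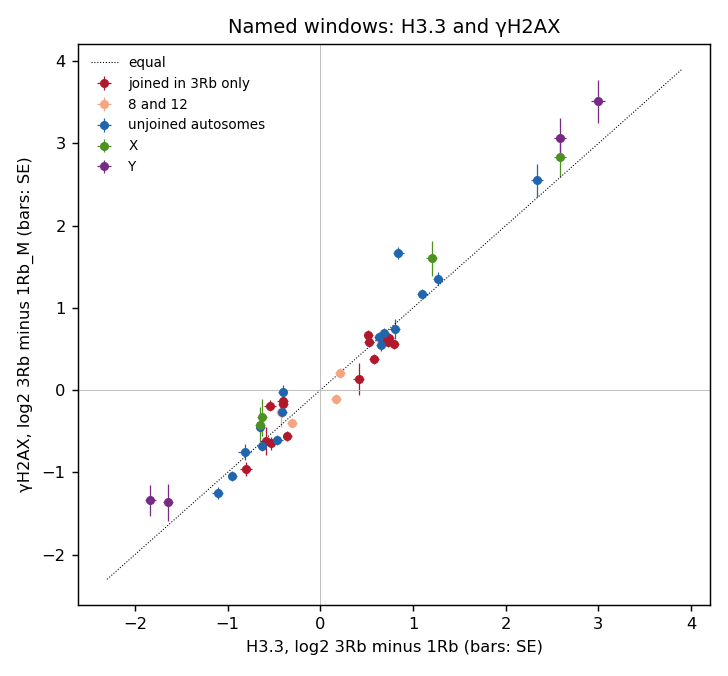
Log2 difference of 3Rb minus 1Rb in H3.3 (x) and of 3Rb minus 1Rb_M in γH2AX (y) at the 43 named windows, with SE bars; the dotted line marks equal differences. Most windows lie along that line in both directions, with Snrpn and Snurf above it (H3.3 0.84, γH2AX 1.67).

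Promoters are shown for 6 of these windows, chosen after their CG counts were seen, to show the range from CG-poor to CG-rich in both directions. They come from RefSeq (GRCm38.p6) and run from 250 bases before to 50 bases after the gene start, with CG dinucleotides in capitals. Of the gains, Fbxw23 (chr9:109543140-109543439, minus strand) and Naip6 (chr13:100316567-100316866, minus strand) have few CGs, Cwc22 (chr2:77946307-77946606, minus strand) has more, and Cox15 (chr19:43752951-43753250, minus strand), in the window of Abcc2 and Cutc, has the most of all named windows. Of the losses, Olfr952 (chr9:39427099-39427398, minus strand) has none and Brox (chr1:183296959-183297258, minus strand) the most.
Fbxw23: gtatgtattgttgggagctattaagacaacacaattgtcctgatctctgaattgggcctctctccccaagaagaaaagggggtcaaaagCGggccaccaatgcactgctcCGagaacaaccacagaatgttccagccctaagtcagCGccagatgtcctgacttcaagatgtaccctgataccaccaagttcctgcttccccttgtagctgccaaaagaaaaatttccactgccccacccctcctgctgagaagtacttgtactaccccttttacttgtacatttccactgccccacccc
Naip6: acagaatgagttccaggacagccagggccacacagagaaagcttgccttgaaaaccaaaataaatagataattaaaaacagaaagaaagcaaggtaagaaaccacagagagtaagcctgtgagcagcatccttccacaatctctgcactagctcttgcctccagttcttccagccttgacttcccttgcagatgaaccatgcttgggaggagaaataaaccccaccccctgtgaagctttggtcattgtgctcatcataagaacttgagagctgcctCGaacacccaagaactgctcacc
Cwc22: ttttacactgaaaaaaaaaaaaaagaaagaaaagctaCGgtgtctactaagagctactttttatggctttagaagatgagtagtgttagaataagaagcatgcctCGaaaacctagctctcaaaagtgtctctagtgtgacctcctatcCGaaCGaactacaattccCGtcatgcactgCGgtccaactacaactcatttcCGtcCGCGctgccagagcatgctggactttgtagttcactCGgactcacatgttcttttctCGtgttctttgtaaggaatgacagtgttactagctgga
Cox15: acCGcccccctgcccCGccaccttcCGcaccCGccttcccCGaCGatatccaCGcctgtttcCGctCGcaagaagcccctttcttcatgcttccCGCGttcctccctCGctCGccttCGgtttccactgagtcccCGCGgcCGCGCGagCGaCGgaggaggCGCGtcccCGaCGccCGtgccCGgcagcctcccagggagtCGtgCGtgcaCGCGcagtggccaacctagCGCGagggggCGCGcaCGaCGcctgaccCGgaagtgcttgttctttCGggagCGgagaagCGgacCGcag
Olfr952: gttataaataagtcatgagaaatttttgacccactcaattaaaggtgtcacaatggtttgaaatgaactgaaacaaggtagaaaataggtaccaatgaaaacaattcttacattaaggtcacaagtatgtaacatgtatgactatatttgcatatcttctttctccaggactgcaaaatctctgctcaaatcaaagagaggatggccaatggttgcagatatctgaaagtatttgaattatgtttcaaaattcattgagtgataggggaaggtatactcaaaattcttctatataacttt
Brox: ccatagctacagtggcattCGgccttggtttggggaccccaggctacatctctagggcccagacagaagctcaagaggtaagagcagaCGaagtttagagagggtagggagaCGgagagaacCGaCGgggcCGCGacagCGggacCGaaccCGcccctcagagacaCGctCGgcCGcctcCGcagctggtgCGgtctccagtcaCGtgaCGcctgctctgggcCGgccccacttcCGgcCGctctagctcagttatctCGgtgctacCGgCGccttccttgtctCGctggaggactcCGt

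Fbxw23 has 3 CGs, Naip6 1, Cwc22 11, Cox15 42, Olfr952 0 and Brox 25, against a median of 7 over all 32851 promoters of the table; 18.4% of them have as many as Brox or more. Of 61 gene symbols in the named windows 38 had a promoter in the window. Among the 19 in gains 2 had 20 or more CGs and the median was 1, and among the 19 in losses 3 had as many and the median was 3. Over all tested autosomal windows, 35.7% held a promoter and 11.9% one with 20 or more CGs. Of the 722 windows higher in 3Rb, 31.9% held a promoter and 2.35% (17) a CG-rich one. Of the 530 lower, 53.8% held a promoter and 9.25% (49) a CG-rich one. These shares were not tested. At 50 kb the signal cannot be assigned to a promoter.

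Lists of genes of meiosis, testis cell types and housekeeping held 0 or 1 called window each. With 14 to 98 autosomal windows a list, and 1.5% of autosomal windows higher and 1.1% lower, this is near the background and not a result about the lists. Of 104 windows with meiotic prophase genes, which serve recombination and synapsis, edgeR called 0 in either direction. At an unadjusted p under 0.05 there were 5 (4.81%), against 15.7% of all windows and 12.7% of autosomal windows. The lowest p of the list was at Hormad2, a HORMA domain gene of unsynapsed axes, with 24.2 ± 0.255 CPM in 3Rb and 26.7 ± 0.779 CPM in 1Rb (log2 −0.14, adjusted p = 0.12). Of 51 windows with genes for silencing of unsynapsed chromatin 0 were called (4 at an unadjusted p under 0.05), and of 35 with H3.3 genes and chaperones 0 (1). Daxx, which loads H3.3 at heterochromatin, had 43.9 ± 2.42 CPM in 3Rb and 48.2 ± 3.55 CPM in 1Rb (adjusted p = 0.338). Likewise 0 of 40 spermatid windows (2), 0 of 42 Sertoli windows (5), 0 of 14 Leydig windows (1), 0 of 23 peritubular and blood windows (3), 0 of 28 housekeeping windows (3) and 0 of 18 histone cluster windows (3) were called. The medians of these lists were below 0, from −0.064 for Leydig to −0.021 for peritubular and blood, against 0.0028 over all windows. The lists hold only windows with genes, however. On the unjoined autosomes the median was −0.014 in windows with 1 to 2 genes and −0.072 in those with 3 or more, against 0.040 in those with 0. Of 46 spermatogonia windows 1 was lower: Zbtb16, the gene of the stem cell factor PLZF, with 21.2, 21.2 and 20.1 CPM in 3Rb, against 21.3, 24.7 and 25.2 CPM in 1Rb (log2 −0.19, adjusted p = 0.0343), on chromosome 9, where 1Rb replicate 1 was level with 3Rb. DESeq2 did not call it, and called 0 windows of the 10 lists without an edgeR call.

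Among lists of gene families, calls ranged from about the autosomal share (1.5% higher, 1.1% lower) to most windows. Major urinary protein genes had 18 of 25 windows lower and 0 higher, with a median log2 of −0.58, among them Mup1 (8.35 ± 0.374 CPM in 3Rb and 15.4 ± 0.713 CPM in 1Rb) and Mup22 (6.55 ± 0.169 CPM in 3Rb and 13.03 ± 0.657 CPM in 1Rb). Of 29 windows of the major histocompatibility complex 4 were lower and 1 higher, led by H2-Q1 with H2-Q2 (log2 −0.39) and H2-T22 with its neighbours (−0.39). Naip genes had 3 higher and 1 lower of 7, and Clec2 and H60 genes 3 higher and 2 lower of 12, with Clec2i at 0.84 and Clec2g at 0.62. Vomeronasal receptors had 22 higher (6.73%) and 16 lower (4.89%) of 327 windows, with Vmn2r36 at 0.44 on 7 and Vmn2r111 at −0.41 on 17. Olfactory receptors had 14 higher (2.41%) and 7 lower (1.20%) of 581, and zinc finger genes 16 (2.97%) and 12 (2.23%) of 539, with Zfp987 at 0.64 on 4 and Zfp640 at −0.44 on 13. Imprinted genes had 1 window higher (0.820%) and 2 lower (1.64%) of 122, all at Snrpn, which is near the autosomal share. Reads of near-identical copies in these families cannot be told apart in the counts.

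X and Y reach the 2 crosses from different strains. With the mother named first, as is usual, the X of 3Rb comes from B6.SPRET7MOLF12 and its Y from RBF/Dnj, and the X of 1Rb comes from CBy.RBF-Rb(8.12)5Bnr/J and its Y from B6.SPRET7MOLF12. Y held 2.47, 2.29 and 2.22% of counts in the 3Rb libraries, against 3.01, 2.89 and 3.04% in the 1Rb libraries and 3.32 ± 0.108% in Cg. Its log2 difference was −0.36 ± 0.048 (adjusted p = 0.00256). Of 1790 Y windows 1486 were lower (83.02%) and 219 higher in 3Rb. Windows with the listed long arm genes had 3 higher and 5 lower of 8, and those with short arm genes 0 higher and 5 lower of 20. Rbmy, a germ cell RNA-binding protein family, had 11.2 ± 0.483 CPM in 3Rb and 25.8 ± 0.332 CPM in 1Rb, and Sly, a repressor of sex chromosome genes in spermatids, 7.48 ± 0.688 CPM in 3Rb and 17.9 ± 0.462 CPM in 1Rb. Usp9y, a deubiquitinase gene, stood at a log2 of −0.49. Gm20830 went the other way, with 128.0, 116.1 and 114.1 CPM in 3Rb, against 16.4, 13.3 and 15.3 CPM in 1Rb (log2 2.99 ± 0.073), as did Gm21301 (2.59), while Gm21076 (−1.83) and Gm21704 with Gm21708 (−1.64) were lower. X as a whole stood at 0.011 ± 0.039 (adjusted p = 0.791). Of its 3310 windows 166 were higher and 119 lower, in 40 and 15 merged runs. Among them were runs of 34 called windows at Srsx (log2 2.58), 46 at Ott (1.20), 9 at Btbd35f23 (−0.65) and 46 at Gm5926 (−0.63). By edgeR 0 of 76 windows with single-copy X genes were called (5 at an unadjusted p under 0.05).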

How the data were processed

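H3.3 in whole testis was analysed from the counts per 50 kb window deposited by the authors for each library. The submitters' processing notes name CASAVA 1.8, BWA and mm10; duplicates and multiply mapping reads are not given in the sources used here. Groups came from titles. Replicates may be technical, since no label ties them to animals, and the p-values cover only that spread. Members, regions, gene lists and rules were chosen with earlier results of these data known.

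The 9 H3.3 libraries (3Rb, 1Rb and Cg) were fitted together in edgeR 4.0.16 (R 4.3.3) with trimmed mean of M-values scaling, the quasi-likelihood test and Benjamini-Hochberg adjustment, with a mean window count of 10 or more required. A call is an adjusted p under 0.05. Each adjusted p in the text is from edgeR, over all windows, 1 Mb bins or chromosomes. On simulated counts the fit recovered 99% of 100 windows changed by a log2 of 0.5 and 100% of 100 changed by 1, with 3 false calls. The simulated windows were independent, with 1 fixed dispersion and no shift of a whole library such as that of 1Rb replicate 1. Called windows of the joined chromosomes had a median absolute log2 of 0.24, below the sizes simulated. These rates therefore do not give the error rates of the real data. CPM values are counts scaled by edgeR. The 9 γH2AX libraries of 3Rb, 1Rb_M and 1Rb_P (4 weeks) were fitted likewise, with 1Rb_P outside the contrast. The counting error of the median window was 2.22 to 3.92%.

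The value of a joined stretch is its median log2(CPM + 0.01) less that of the unjoined autosomes, per library. For matching, autosomal windows were divided into 5 equal classes of Cg H3.3 over input, medians were set against all unjoined windows of the class where a stretch had at least 10 windows, and classes were averaged by window number. Values per library were tested by exact permutation, two-sided (scipy 1.17.1).

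For the named windows, neighbouring calls of the same sign (up to 1 window between) were merged and shown by the window with the smallest p. Windows with pooled input above 5 or below 0.2 of the median, or not moved alike in all 9 library pairs, were left out, and protein-coding genes came first. Of the windows chosen, 1 on a joined chromosome is not reported here. Per direction up to 2 were taken on each of 1, 3, 9, 14, X and Y, up to 8 on the unjoined autosomes (at most 1 per chromosome) and up to 1 each on 8 and 12. From each gene list up to 3 windows with the smallest p were eligible. Gene positions are those of RefSeq for GRCm38.p6, the assembly of mm10. Alternatives were DESeq2 1.42.0, other scalings, no low-count filter, the 6 libraries alone, a replicate block, omission of the 1503 of 54520 windows of unusual input, and omission of each library.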

Additional observations from a re-analysis of the deposited data

How the results depend on the processing

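Under DESeq2, other scalings, no filter on low counts, the 6 libraries alone and without windows of unusual input, the counts of called windows stayed within 1.5 times of those reported, as did those of called bins, on which DESeq2 was not run; DESeq2 gave 956 windows higher and 2054 lower. Same-numbered 3Rb and 1Rb libraries had correlations of −0.28, −0.07 and −0.20, so the numbers do not pair them; with a replicate block 940 windows were higher and 2011 lower, and the 1 Mb bins higher fell to 42, against 68. With 1 library left out, windows ranged from 764 to 2094 higher and from 1962 to 3010 lower, bins from 39 to 371 higher and from 94 to 267 lower, joined windows from 154 to 577 higher and from 90 to 258 lower, proximal joined windows from 29 to 162 higher, and unjoined windows from 239 to 1002 higher and from 257 to 1010 lower. The upper ends came from leaving out 1Rb replicate 1. The joined-minus-unjoined difference of 0.040 stayed between 0.028 and 0.062. Of values that changed sign, none of which was called, chromosome 1 stood at −0.0012 and 12 at −0.0020 with scaling over unjoined autosomes, chromosome 9 at −0.012 without windows of unusual input, and with 1 library left out 1 ranged from −0.0058 to 0.0062, 12 from −0.0077 to 0.0049 and X from −0.044 to 0.042. As regions over input, the proximal 10 Mb of 8 and 12 ranged from −0.039 to 0.0014, the rest of 8 and 12 from −0.00088 to 0.0043, the proximal 10 Mb of unjoined autosomes from −0.00057 to 0.0034 and X from −0.023 to 0.050, and by its median window X stood at −0.011. The cause of these changes was not tested. Of the values for named windows under the alternatives, 595 kept their call and 16 lost it, all at 4 windows: Csmd1, Gm3993, Sntg1 and Il7. Differences under about 3% in a single window lie within counting error at this depth.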
